A study of Mus musculus with 6 samples.

Results

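Chemokines and their receptors were followed in bulk RNA from 6 mouse liver tumours. The set was chosen by gene symbol alone, as every gene of the table named Ccl, Cxcl, Ccr or Cxcr with a number, together with Xcl1, Xcr1, Cx3cl1 and Cx3cr1. It held 60 of 55291 genes, of which 39 are ligands and 18 are receptors. The other 3 are the pseudogenes Ccl19-ps1 and Ccl19-ps3 and the receptor-like gene Ccr1l1. Of the 60, 43 reached 1 TPM (transcripts per 1000000 transcripts) in at least 3 libraries and were tested, 31 ligands and 12 receptors. The remaining 17 were below that level, 4 of them with a value of 0 in every library.

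The tumours were RIL-175/PD-1R tumours, named for a mouse hepatocellular carcinoma line. They were taken from LysM-Cre mice (group Cre_PD1, 3 libraries) or from Trem2-MKO mice, in which Trem2 is knocked out in myeloid cells (group MKO_PD1, 3 libraries), and every mouse of both groups had received anti-PD-1. LysM-Cre, known to act in macrophages, monocytes and neutrophils, is carried by the control mice without the knockout. The design does not target Trem2 in other host cells or in the tumour cells. Age, sex and treatment schedule are not given in the sources used here. The series' design text counts 3 mice of each genotype, and libraries are named by group and replicate number. Values for a group are listed in the order of replicates 1, 2 and 3, in TPM, which counts transcripts per length and so allows levels of different genes to be set side by side. Differences are log2(TPM + 1) in MKO_PD1 minus Cre_PD1 with the standard error (SE) of a limma fit over all 16506 tested genes.

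Chemokines are small secreted proteins that direct the movement of white blood cells by binding cell surface receptors that signal through G proteins. Names follow the spacing of the first cysteines of the ligand (CC, CXC, XC and CX3C), and a receptor is named after the kind of ligand it binds. In liver and in liver tumours, the Ccr2 ligands are known for drawing monocytes, the Cxcr2 ligands neutrophils, the Cxcr3 and Cxcr6 ligands T cells and natural killer cells, and Cxcl12 is known for retaining cells that carry Cxcr4. Several pairs are promiscuous, so a ligand is described here beside a receptor set for its group, which need not be its main receptor.

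Trem2, the targeted gene, was at 10.5, 16.5 and 14.9 TPM in Cre_PD1 and 7.68, 18.0 and 6.81 TPM in MKO_PD1, and its levels overlapped between the groups (exact permutation p = 0.4, two-sided). Which part of the gene is deleted is not given in the sources used here, so this level does not check the labels. The libraries held 26750310 to 34268374 recovered reads. Sums over marker genes also differed between the groups. The 12 hepatocyte genes took 1.30 to 2.44% of TPM in Cre_PD1. In MKO_PD1 replicates 1, 2 and 3 they took 13.2, 3.09 and 9.13%, so replicate 2 lay nearest to Cre_PD1. The 5 tumour epithelial genes took 0.737 to 1.36% in Cre_PD1 and 0.139, 0.450 and 0.345% in MKO_PD1. MKO_PD1 replicate 2 stood apart from the other MKO_PD1 libraries. It had the highest summed level of neutrophil markers (1242 TPM, with 140 to 261 TPM in Cre_PD1 and 296 and 477 TPM in MKO_PD1 replicates 1 and 3), of macrophage markers (6402 TPM, with 2524 to 3444 TPM in the other 5 libraries) and of T cell markers (336 TPM, with 46.5 to 139.7 TPM in the other 5). Within the macrophage list, Adgre1 was highest in MKO_PD1 replicate 1 and Mertk in MKO_PD1 replicate 3, and the other genes in MKO_PD1 replicate 2. The 6 markers of Kupffer cells, the resident liver macrophages, went another way. They summed to 203, 501 and 443 TPM in Cre_PD1 and 2179, 380 and 1389 TPM in MKO_PD1. All 10 neutrophil, 10 macrophage and 8 T cell markers were detected. In bulk RNA, more cells of a type and more RNA per cell cannot be told apart.

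Most of the family was highest in that 1 library, ligands and receptors alike. MKO_PD1 replicate 2 held the highest level of the 6 libraries for 34 of the 43 tested members (23.3% of all tested genes), for 23 of 31 ligands and 11 of 12 receptors. Its level lay above every Cre_PD1 library for 36 members (31.9% of all tested genes). MKO_PD1 replicate 1 held the lowest level for 25 members (70.2% of all tested genes) and lay below every Cre_PD1 library for 28 (73.8%). Ligand transcripts summed to 915, 1512 and 1278 TPM in Cre_PD1 and to 943, 3588 and 1450 TPM in MKO_PD1. Receptor transcripts summed to 129, 133 and 141 TPM in Cre_PD1 and to 68.1, 355 and 128 TPM in MKO_PD1. Within MKO_PD1, replicate 2 thus held 3.80 times the ligand level and 5.20 times the receptor level of replicate 1. Every one of the 12 tested receptors was over 2 times higher in MKO_PD1 replicate 2 than in the mean of the other MKO_PD1 libraries, which was the case for 32.0% of all tested genes.

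**Figure D1:**
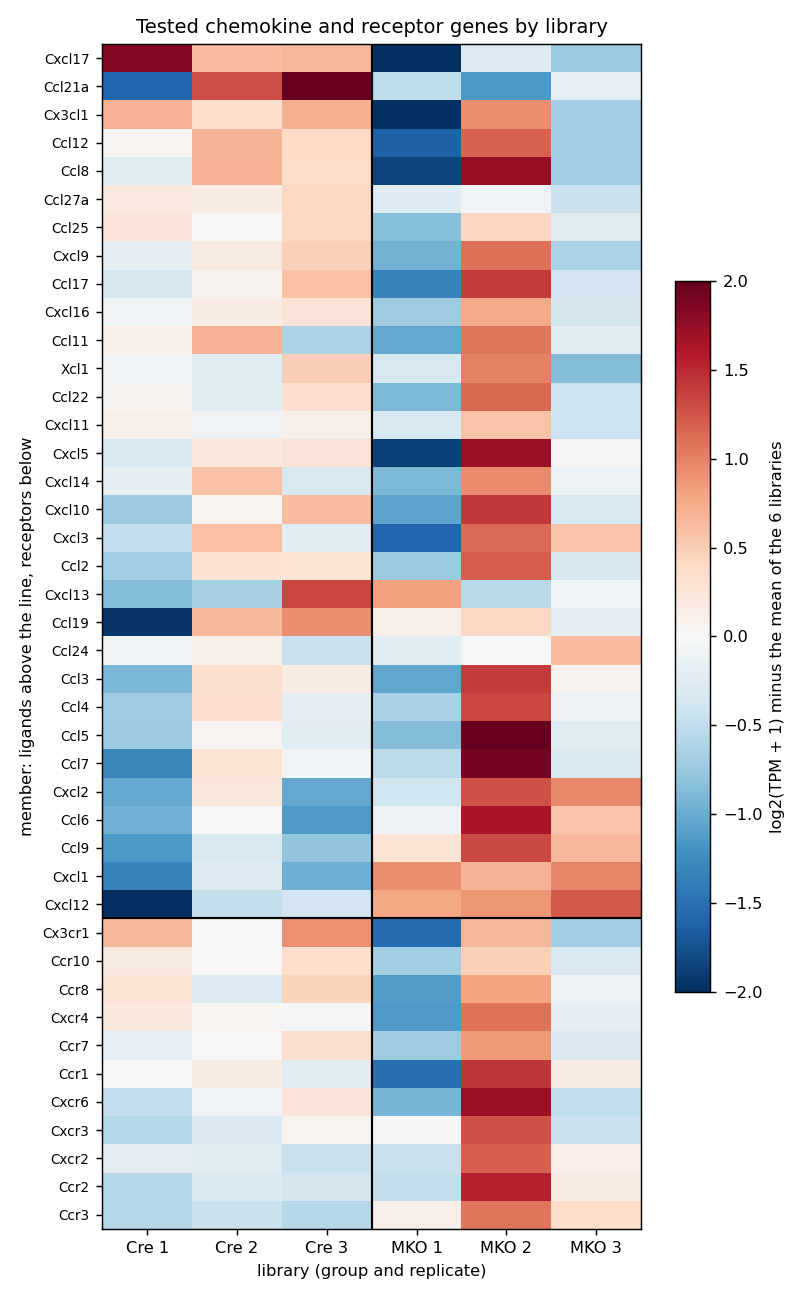
Level of 42 of the 43 tested members in each library, as log2(TPM + 1) minus the mean of the 6 libraries for that gene (red higher, blue lower, values beyond 2 drawn at the end of the scale). Rows are 31 ligands above the line and 11 receptors below it, and the column of MKO_PD1 replicate 2 is red for most of them.

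**Figure D2:**
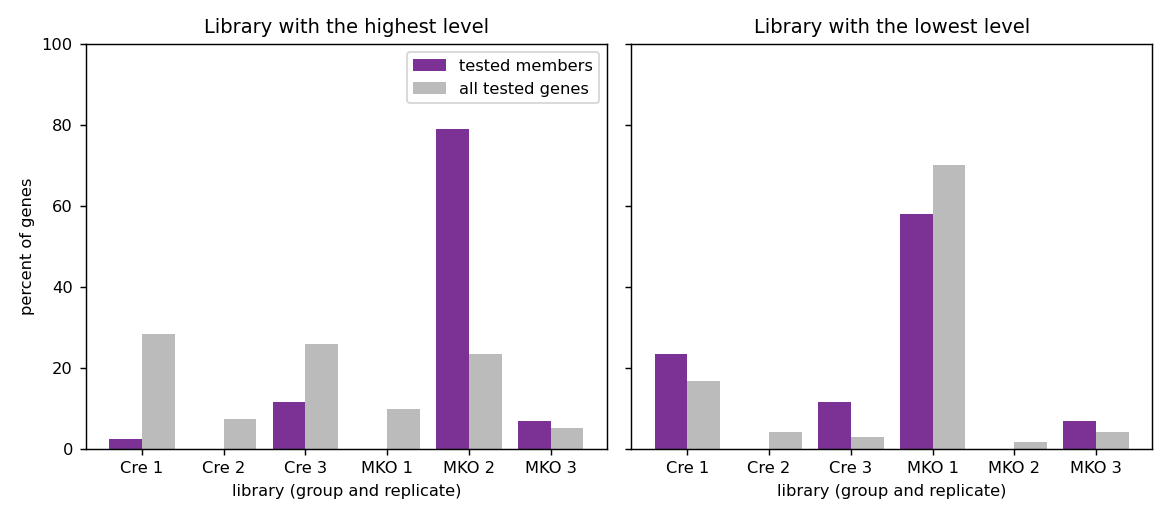
Percent of the 43 tested members and of all 16506 tested genes whose highest level (left) or lowest level (right) lies in each library. MKO_PD1 replicate 2 is highest for 79.1% of members and 23.3% of all genes.

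Between the groups, 0 of 43 members passed the adjusted threshold of 0.05 in limma (0.0121% of all tested genes did), and limma voom on recovered reads also called 0. At an unadjusted p under 0.05 there were 6 members higher (8.47% of all tested genes) and 1 lower (19.5%), and voom had 11 in either direction (29.7%). The 6 higher were Cxcl1, Cxcl12, Ccl9, Ccr3, Ccl6 and Cxcl2, and the lower was Cxcl17. The groups did not overlap for 4 members higher in MKO_PD1, Cxcl1, Cxcl12, Ccl9 and Ccr3, which is 9.3% of members (10.1% of all tested genes). Ccr3 reached 1 TPM in MKO_PD1 libraries alone, so that the filter on low values fixed its direction, and nothing is read from its place in these counts. They did not overlap for 2 members lower in MKO_PD1, Cxcl17 and Ccl27a (28.9% of all tested genes). The median difference was 0.047 for members and -0.42 for all tested genes. Scaled by the median of ratios instead of a fixed total, the all-gene median was -0.018 and that of members 0.48, and 10 members did not overlap in the higher direction (18.6% of all tested genes) and 1 in the lower (21.2%). Under that scaling the sign of the difference turned from negative to positive for Ccr7, Cxcr4, Cxcl5, Cxcl9, Cxcl11, Cxcl14, Cxcl16, Ccl11, Ccl17, Ccl22 and Xcl1.

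Without MKO_PD1 replicate 2, 9 of 42 members passed, in a fit where 7314 of 15940 genes did. The 3 that were higher in MKO_PD1 were Cxcl1, Cxcl12 and Ccl9 (7.88% of all tested genes were called higher). The 6 that were lower were Cxcl17, Cx3cl1, Cx3cr1, Ccl12, Ccl8 and Cxcl9 (38.0% called lower). The groups then did not overlap for 3 members higher (14.1% of all tested genes) and 17 lower (62.1%).

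**Figure D3:**
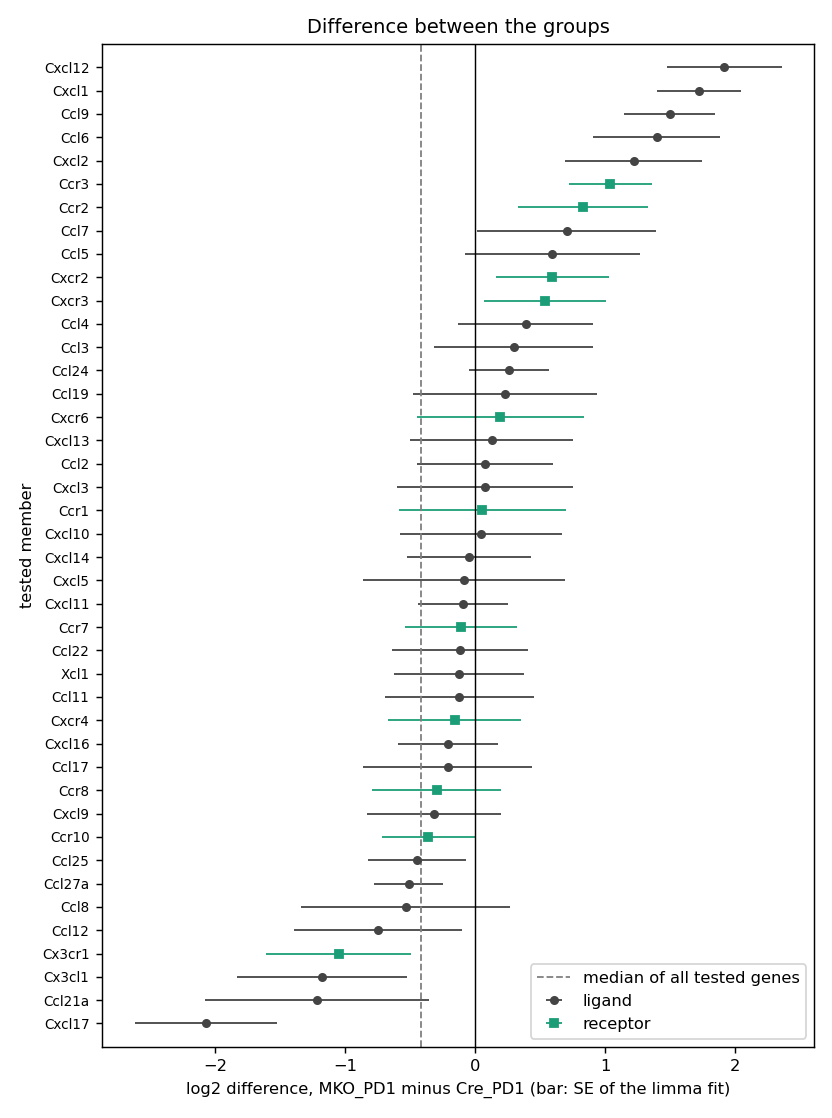
Difference of 42 of the 43 tested members between the groups, as the log2 difference of MKO_PD1 minus Cre_PD1 with its SE from the limma fit, ligands as circles and receptors as squares. Cxcl12 and Cxcl1 lie at the upper end and Cxcl17 at the lower end, and the dashed line marks the median of all tested genes at -0.42.

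The ligands of Cxcr2 draw neutrophils. Their genes lie side by side on chromosome 5 between 90759360 and 90905938 (GRCm38, GENCODE M21) in the order Cxcl5, Cxcl3, Cxcl15, Cxcl1 and Cxcl2. Cxcl1 (ENSMUSG00000029380.11, chromosome 5, 90891241 to 90893115) was at 10.8, 23.7 and 14.1 TPM in the Cre_PD1 libraries and 55.8, 46.5 and 57.8 TPM in the MKO_PD1 libraries. Every MKO_PD1 library was above every Cre_PD1 library, at 16.2 ± 6.71 TPM in Cre_PD1 against 53.4 ± 6.05 TPM in MKO_PD1 (SD, n = 3 in each group, as for every mean below), with a log2 difference of 1.72 (SE 0.32, limma adjusted p = 0.168). It was the smallest unadjusted p among the members, and the difference was 1.82 without MKO_PD1 replicate 2 (adjusted p = 0.0290). Cxcl2 was at 5.42, 14.3 and 5.41 TPM in the Cre_PD1 libraries and 8.96, 30.5 and 24.3 TPM in the MKO_PD1 libraries. MKO_PD1 replicate 1 lay inside the Cre_PD1 range, and the difference of 1.22 (SE 0.53) had an adjusted p of 0.179. The neighbours Cxcl3 and Cxcl5, given in full after their values were seen, did not follow Cxcl1 over the MKO_PD1 libraries. Cxcl3 was at 8.04, 18.0 and 9.75 TPM in the Cre_PD1 libraries and 3.18, 26.5 and 17.7 TPM in the MKO_PD1 libraries. Cxcl5 was at 29.4, 43.0 and 44.4 TPM in the Cre_PD1 libraries and 9.50, 124 and 37.6 TPM in the MKO_PD1 libraries. For both, MKO_PD1 replicate 1 was the lowest of all libraries and MKO_PD1 replicate 2 the highest. The ratio of Cxcl1 to Cxcl5 within a library, which no scaling changes, was 0.367, 0.552 and 0.317 in Cre_PD1 and 5.88, 0.374 and 1.54 in MKO_PD1. Cxcl1 was thus below Cxcl5 in all Cre_PD1 libraries and in MKO_PD1 replicate 2, and above it in MKO_PD1 replicates 1 and 3. The receptor gene Cxcr2 was at 2.87, 2.73 and 2.25 TPM in the Cre_PD1 libraries and 2.25, 9.19 and 3.88 TPM in the MKO_PD1 libraries, with MKO_PD1 replicate 2 highest and the difference at 0.60 (SE 0.43, adjusted p = 0.339). The neutrophil marker sum given above was also highest in that library, and its part in the Cxcr2 level was not tested.

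The bases before the start of these neighbours are shown because 3 genes of the cluster share a stretch there. Of these, Cxcl2 and Cxcl3, but not Cxcl1, were highest in MKO_PD1 replicate 2. Each line gives the 250 bases upstream of the RefSeq transcription start (GRCm38.p6), 5′ to 3′ on the gene's strand, with matches in capitals to the kappaB motif, bound by NF-kappaB, or to the interferon-stimulated response element (ISRE). The kappaB motif was searched as GGG, 3 bases of any kind and TTCC, and the ISRE as TTTC, 2 bases of any kind and TTTC, each on either strand. Overlapping matches are joined. Cxcl10, from the interferon-induced ligands, and Cxcl12, which had neither motif in the window, are added for comparison.
Cxcl1: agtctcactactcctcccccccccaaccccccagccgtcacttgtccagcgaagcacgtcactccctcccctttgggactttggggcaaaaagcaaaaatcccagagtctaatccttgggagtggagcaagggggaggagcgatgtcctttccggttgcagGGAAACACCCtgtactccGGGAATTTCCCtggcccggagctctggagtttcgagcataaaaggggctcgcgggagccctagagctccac
Cxcl2: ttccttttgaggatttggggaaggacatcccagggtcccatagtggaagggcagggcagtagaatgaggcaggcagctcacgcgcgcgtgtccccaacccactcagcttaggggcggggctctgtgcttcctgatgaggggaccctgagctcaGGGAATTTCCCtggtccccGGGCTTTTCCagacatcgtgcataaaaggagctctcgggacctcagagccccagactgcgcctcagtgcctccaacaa
Cxcl3: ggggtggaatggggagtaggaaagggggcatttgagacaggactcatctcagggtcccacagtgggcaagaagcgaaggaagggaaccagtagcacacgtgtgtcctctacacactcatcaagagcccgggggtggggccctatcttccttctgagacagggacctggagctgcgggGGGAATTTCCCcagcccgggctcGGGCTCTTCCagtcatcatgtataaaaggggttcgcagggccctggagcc
Cxcl10: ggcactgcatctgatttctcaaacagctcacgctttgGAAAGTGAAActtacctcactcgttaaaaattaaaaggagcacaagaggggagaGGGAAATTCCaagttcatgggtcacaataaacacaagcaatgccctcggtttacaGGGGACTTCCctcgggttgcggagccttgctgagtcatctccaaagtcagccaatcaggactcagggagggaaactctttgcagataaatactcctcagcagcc
Cxcl12: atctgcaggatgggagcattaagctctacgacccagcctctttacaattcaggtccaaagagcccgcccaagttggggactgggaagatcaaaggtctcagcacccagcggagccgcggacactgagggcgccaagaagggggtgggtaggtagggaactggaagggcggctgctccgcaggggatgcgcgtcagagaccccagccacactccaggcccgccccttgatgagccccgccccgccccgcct
The windows are chr5:90890995-90891244 for Cxcl1, chr5:90903649-90903898 for Cxcl2 and chr5:90785851-90786100 for Cxcl3, all on the plus strand, chr5:92348890-92349139 on the minus strand for Cxcl10 and chr6:117168285-117168534 on the plus strand for Cxcl12. A promoter was found for 30 of the 43 tested members. None was found for Cxcl5, which was therefore not searched for either motif. A kappaB match lay in the window of 6 of these genes (Ccl9, Ccr3, Cxcl1, Cxcl10, Cxcl2 and Cxcl3) and in 4.65% of all 32851 promoters. An ISRE match lay in that of 3 (Ccl19, Cxcl10 and Cxcl14) and in 2.98% of all. The run GGGAATTTCC stands in the windows of Cxcl1, Cxcl2 and Cxcl3, at 71, 97 and 73 bases before the start. A match of letters is not a measured binding site.

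**Figure D4:**
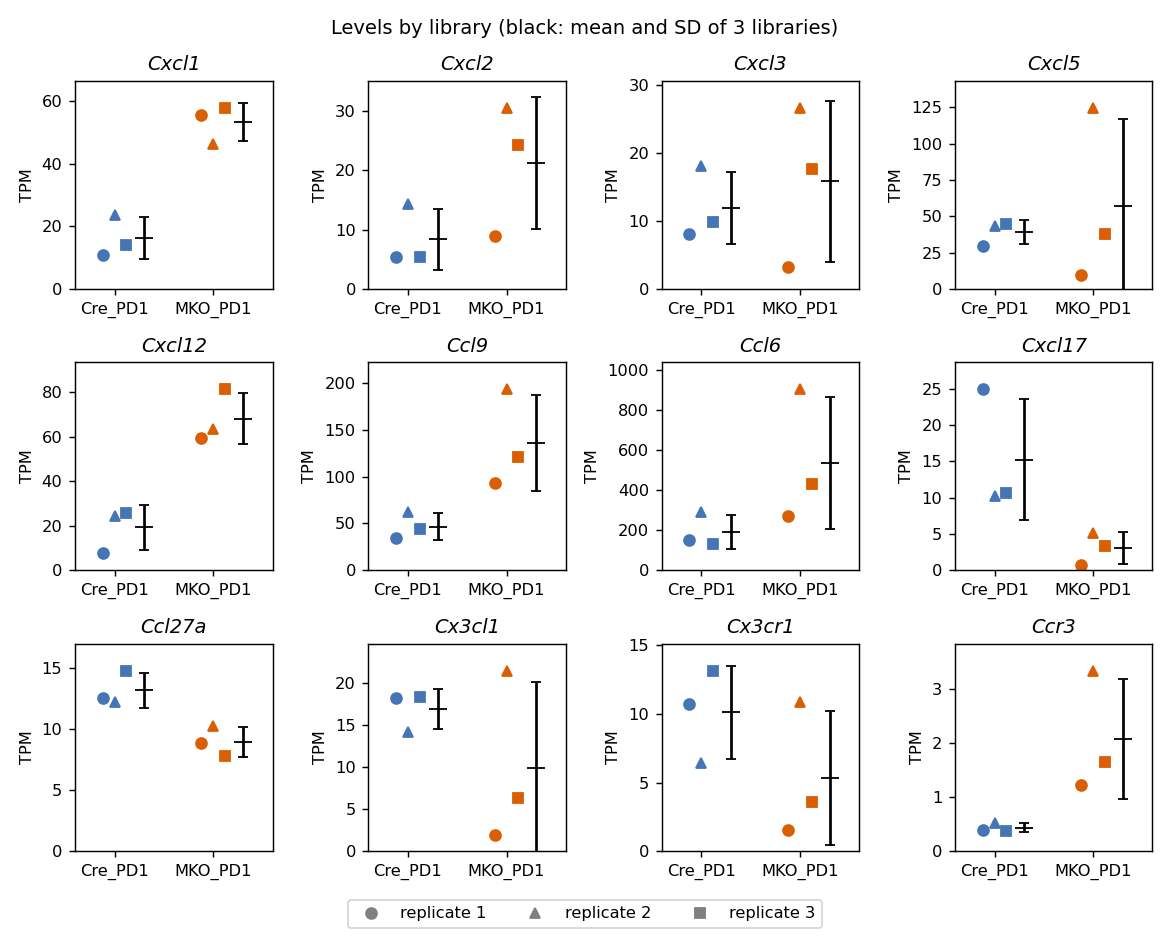
Level in TPM of 12 members in each library (Cre_PD1 blue, MKO_PD1 orange, marker shape by replicate number), with the mean and SD of 3 libraries in black (SD bars that would pass below 0 end at the axis). Cxcl1, Cxcl12, Ccl9 and Ccr3 lie higher and Cxcl17 and Ccl27a lower in all MKO_PD1 libraries, while Cxcl5, Cx3cl1 and Cx3cr1 spread widely within MKO_PD1.

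Cxcl12, made by stromal, endothelial and other resident cells, had the largest log2 difference among the members higher in MKO_PD1. Cxcl12 (ENSMUSG00000061353.11, chromosome 6, 117168535 to 117181367) was at 7.74, 24.4 and 25.9 TPM in the Cre_PD1 libraries and 59.5, 63.7 and 81.3 TPM in the MKO_PD1 libraries. All MKO_PD1 libraries lay above all Cre_PD1 libraries, at 19.3 ± 10.1 TPM in Cre_PD1 against 68.1 ± 11.6 TPM in MKO_PD1, with a log2 difference of 1.92 (SE 0.44, limma adjusted p = 0.168). MKO_PD1 replicate 2 did not stand out here, and the difference without it was 1.96 (adjusted p = 0.0302). Its receptor gene Cxcr4 was at 32.5, 28.6 and 27.5 TPM in the Cre_PD1 libraries and 12.1, 60.5 and 24.3 TPM in the MKO_PD1 libraries, lowest and highest within MKO_PD1, with a difference of -0.16 (SE 0.51, adjusted p = 0.831). Cxcl12 was below Cxcr4 in every Cre_PD1 library, with ratios of 0.238, 0.851 and 0.944, and above it in every MKO_PD1 library, with ratios of 4.91, 1.05 and 3.34. The 7 endothelial markers summed to 85.7 to 108 TPM in Cre_PD1 and 139.9 to 208 TPM in MKO_PD1, with 5 of 7 not overlapping and higher (10.1% of all tested genes). The sum of the hepatocyte genes given above was also higher in all MKO_PD1 libraries, with 11 of the 12 genes not overlapping and higher (10.1% of all tested genes). The 7 fibroblast and stellate cell markers summed to 741 to 1196 TPM and 216 to 2239 TPM, highest in MKO_PD1 replicate 2. The part of these cells in the Cxcl12 level was not tested. Ackr3, a scavenging receptor that removes Cxcl12 and was picked from the list of chemokine handling genes after its values were seen, was at 59.4, 76.3 and 58.6 TPM in Cre_PD1 and 9.45, 39.5 and 37.3 TPM in MKO_PD1, lower in all MKO_PD1 libraries (log2 difference -1.37, SE 0.51, limma adjusted p = 0.168).

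Ccl6 and Ccl9 are myeloid ligands of Ccr1, and Ccl3 and Ccl5 bind Ccr1 as well. With Ccl4, these genes stand together on chromosome 11 between 83525778 and 83664683. Ccl9 (ENSMUSG00000019122.8, chromosome 11, 83572919 to 83578636) was at 34.1, 61.7 and 44.2 TPM in the Cre_PD1 libraries and 93.1, 193 and 121 TPM in the MKO_PD1 libraries. The groups did not overlap, at 46.7 ± 13.9 TPM in Cre_PD1 against 136 ± 51.6 TPM in MKO_PD1, and the log2 difference was 1.50 (SE 0.35, limma adjusted p = 0.168). It was 1.21 without MKO_PD1 replicate 2 (adjusted p = 0.0292). Ccl6, the chemokine gene of highest mean level, was at 149.6, 289.8 and 132 TPM in the Cre_PD1 libraries and 270.4, 901 and 432 TPM in the MKO_PD1 libraries. Only MKO_PD1 replicate 1 reached into the Cre_PD1 range, below Cre_PD1 replicate 2, and the difference was 1.40 (SE 0.49, adjusted p = 0.168). The ratio of Ccl6 to Ccl9 lay between 2.98 and 4.70 over Cre_PD1 and between 2.90 and 4.66 over MKO_PD1.

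Ccl3, Ccl4 and Ccl5, inflammatory chemokines that T cells, natural killer cells and macrophages make, were highest in MKO_PD1 replicate 2. Ccl5 was at 84.9, 147 and 121 TPM in the Cre_PD1 libraries and 76.9, 571 and 118 TPM in the MKO_PD1 libraries. Outside that library the values of both groups lay between 76.9 and 146.9 TPM, and the difference was 0.60 (SE 0.68, limma adjusted p = 0.529) with it and -0.26 without it. Ccl3 was at 21.1, 51.1 and 45.3 TPM in the Cre_PD1 libraries and 19.3, 109 and 43.0 TPM in the MKO_PD1 libraries. Ccl4 was at 26.8, 56.6 and 38.9 TPM in the Cre_PD1 libraries and 28.2, 115 and 41.4 TPM in the MKO_PD1 libraries. Both overlapped between the groups, with differences of 0.30 (SE 0.61) for Ccl3 and 0.39 (SE 0.52) for Ccl4 and limma adjusted p of 0.732 and 0.594, and both differences were negative without MKO_PD1 replicate 2. The ratio of Ccl3 to Ccl4 varied little, from 0.685 to 1.16 over the 6 libraries. The receptor gene Ccr1 was at 33.8, 37.9 and 29.2 TPM in the Cre_PD1 libraries and 11.4, 94.0 and 37.9 TPM in the MKO_PD1 libraries, lowest in MKO_PD1 replicate 1 and highest in MKO_PD1 replicate 2. Its difference was 0.056 (SE 0.65, adjusted p = 0.952). The macrophage and T cell marker sums given above were highest in the same library as these 4 genes, and their part was not tested.

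The ligand genes Ccl2, Ccl7, Ccl12 and Ccl8, set here beside Ccr2, form a second block on chromosome 11, between 82035571 and 82305690 together with Ccl11 and Ccl1. Binding of these ligands to Ccr2 was not measured. Ccl8, the highest of them, was at 80.1, 155 and 123 TPM in the Cre_PD1 libraries and 25.8, 321 and 58.5 TPM in the MKO_PD1 libraries. MKO_PD1 replicates 1 and 3 lay below all Cre_PD1 libraries and MKO_PD1 replicate 2 above them, so the group difference of -0.54 (SE 0.80, limma adjusted p = 0.634) averaged values on both sides. It was -1.54 without MKO_PD1 replicate 2 (limma adjusted p = 0.0317), in a fit that called 38.0% of all tested genes lower. Ccl2 ran over 25.8 to 50.9 TPM in Cre_PD1 and 24.6 to 97.9 TPM in MKO_PD1, Ccl7 over 7.98 to 25.6 TPM in Cre_PD1 and 14.2 to 81.6 TPM in MKO_PD1 and Ccl12 over 12.5 to 20.2 TPM in Cre_PD1 and 3.27 to 28.7 TPM in MKO_PD1, each highest in MKO_PD1 replicate 2. Ccl12 was lower against Ccl7 in MKO_PD1, with ratios of 1.56, 0.788 and 0.809 in Cre_PD1 and 0.230, 0.352 and 0.437 in MKO_PD1, a pair chosen after its values were seen. The receptor gene Ccr2, carried by inflammatory monocytes, was at 5.73, 7.13 and 6.77 TPM in the Cre_PD1 libraries and 6.17, 28.5 and 10.3 TPM in the MKO_PD1 libraries. MKO_PD1 replicate 1 lay inside the Cre_PD1 range and the difference was 0.83 (SE 0.50, adjusted p = 0.266). Of the 6 monocyte markers, 3 were higher in MKO_PD1 without overlap (10.1% of all tested genes) and 1 was lower (28.9%), and their part in the Ccr2 level was not tested.

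Cx3cl1, a membrane-bound chemokine of epithelium and endothelium, and its receptor gene Cx3cr1, carried by patrolling monocytes and macrophages, had a similar pattern of low values. Cx3cl1 was at 18.2, 14.2 and 18.4 TPM in the Cre_PD1 libraries and 1.96, 21.5 and 6.38 TPM in the MKO_PD1 libraries. Cx3cr1 was at 10.8, 6.47 and 13.1 TPM in the Cre_PD1 libraries and 1.56, 10.9 and 3.61 TPM in the MKO_PD1 libraries. In both cases MKO_PD1 replicates 1 and 3 lay below all Cre_PD1 libraries and MKO_PD1 replicate 2 did not. With MKO_PD1 replicate 2 left out, 62.1% of all tested genes were lower in MKO_PD1 without overlap. The log2 differences were -1.18 (SE 0.65) for Cx3cl1 and -1.05 (SE 0.56) for Cx3cr1, with limma adjusted p of 0.237 and 0.223. Without MKO_PD1 replicate 2 they were -1.93 and -1.65 (limma adjusted p = 0.0290 and 0.0292), in a fit that called 38.0% of all tested genes lower. Without MKO_PD1 replicates 1 and 3 they were 0.33 and 0.14. The ratio of ligand to receptor lay between 1.40 and 2.19 over Cre_PD1 and between 1.26 and 1.98 over MKO_PD1. Set against Ccr2, the other monocyte receptor gene, Cx3cr1 was lower in all MKO_PD1 libraries, with ratios of 1.88, 0.907 and 1.94 in Cre_PD1 and 0.252, 0.381 and 0.352 in MKO_PD1, again a pair chosen after the values were seen.

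Cxcl9, Cxcl10 and Cxcl11 are induced by interferon and draw T cells through Cxcr3. They lie together on chromosome 5 between 92321347 and 92365485. Cxcl9 was at 146, 186 and 229.7 TPM in the Cre_PD1 libraries and 85.5, 356 and 106 TPM in the MKO_PD1 libraries. Cxcl10 was at 35.5, 61.5 and 91.8 TPM in the Cre_PD1 libraries and 28.3, 161 and 48.2 TPM in the MKO_PD1 libraries. In both cases the Cre_PD1 libraries fell between MKO_PD1 replicate 2 above and at least 1 other MKO_PD1 library below, and the group differences of -0.32 (SE 0.52) and 0.047 (SE 0.62) had limma adjusted p of 0.666 and 0.959. For Cxcl9 the difference was -0.95 without MKO_PD1 replicate 2 (limma adjusted p = 0.0316), in a fit that called 38.0% of all tested genes lower. Cxcl11 stayed low, over 3.27 to 3.85 TPM in Cre_PD1 and 2.37 to 5.67 TPM in MKO_PD1, and the annotation lists it as a polymorphic pseudogene whose exons share 1582 bases with Gm2673 on the other strand. The receptor gene Cxcr3 was at 2.39, 3.13 and 4.22 TPM in the Cre_PD1 libraries and 3.92, 11.2 and 2.73 TPM in the MKO_PD1 libraries (difference 0.54, SE 0.47, adjusted p = 0.414). Cxcl16, the membrane-bound ligand of Cxcr6, was at 60.1, 71.1 and 77.0 TPM in the Cre_PD1 libraries and 39.0, 109.5 and 49.5 TPM in the MKO_PD1 libraries. Cxcr6, a receptor of tissue-resident T cells and natural killer T cells, was at 12.8, 17.4 and 22.2 TPM in the Cre_PD1 libraries and 9.16, 62.2 and 12.7 TPM in the MKO_PD1 libraries. MKO_PD1 replicate 2 was highest and MKO_PD1 replicate 1 lowest for both, and neither passed (adjusted p = 0.706 and 0.832). The exons of Cxcl10 share 133 bases with Art3 and those of Cxcl16 share 552 with Zmynd15, and whether counting used strand is not given in the sources used here. T cell markers, given above, were likewise highest in MKO_PD1 replicate 2 and lowest in MKO_PD1 replicate 1, and their part in these levels was not tested.

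Genes of dendritic cell and lymphocyte traffic were low and varied within the groups. Ccr7, the receptor that guides mature dendritic cells and naive T cells to lymph nodes, was at 5.97, 6.74 and 8.77 TPM in the Cre_PD1 libraries and 3.74, 13.002 and 5.35 TPM in the MKO_PD1 libraries (difference -0.11, SE 0.43, limma adjusted p = 0.863). Its ligand gene Ccl21a was at 0.678, 11.3 and 20.9 TPM in the Cre_PD1 libraries and 2.54, 1.27 and 3.48 TPM in the MKO_PD1 libraries, with Cre_PD1 replicate 1 the lowest of all libraries and Cre_PD1 replicates 2 and 3 the only values above 3.48 TPM (difference -1.22, SE 0.86, adjusted p = 0.328). Ccl19 ran over 0.681 to 11.3 TPM in Cre_PD1 and 4.69 to 7.62 TPM in MKO_PD1 and was also lowest in Cre_PD1 replicate 1. Ccl21a and Ccl19 each carry several gene identifiers in the annotation and near-identical copies, so their reads may be divided among copies. The Ccr4 ligands Ccl17 and Ccl22, which draw regulatory T cells, ran over 3.06 to 6.66 TPM in Cre_PD1 and 1.04 to 12.5 TPM in MKO_PD1 and over 4.58 to 7.26 TPM in Cre_PD1 and 2.49 to 13.4 TPM in MKO_PD1. Ccr8, a receptor of regulatory T cells in tumours, ran over 2.20 to 4.27 TPM in Cre_PD1 and 0.779 to 5.71 TPM in MKO_PD1. Xcl1, which natural killer and T cells release to attract cross-presenting dendritic cells, ran over 2.23 to 4.36 TPM in Cre_PD1 and 1.08 to 6.70 TPM in MKO_PD1, and its receptor gene Xcr1 was below the level tested, at 0.839 to 2.54 TPM. Ccl17, Ccl22, Ccr8, Xcl1 and Xcr1 were all highest in MKO_PD1 replicate 2. Cxcl13, the B cell ligand of Cxcr5, ran over 0.513 to 5.95 TPM in Cre_PD1 and 0.870 to 3.78 TPM in MKO_PD1 and was highest in Cre_PD1 replicate 3, the library with the highest B cell marker sum (26.9 TPM, with 4.31 to 18.8 TPM in the other 5).

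Ccr3, the eotaxin receptor of eosinophils and basophils, had few reads. It was at 0.391, 0.534 and 0.384 TPM in the Cre_PD1 libraries and 1.24, 3.33 and 1.65 TPM in the MKO_PD1 libraries, from 13, 21 and 11 reads per Cre_PD1 library and 53, 109 and 57 per MKO_PD1 library. No Cre_PD1 library reached 1 TPM, so Ccr3 passed the filter through MKO_PD1 alone and had to be higher there. Its values are therefore a description, with no test. The 3 eosinophil markers summed to 3.07 to 4.88 TPM in Cre_PD1 and 6.65 to 14.4 TPM in MKO_PD1. Among them Prg2 ran over 1.41 to 3.18 TPM in Cre_PD1 and 4.73 to 9.67 TPM in MKO_PD1. Siglecf overlapped, at 1.52 to 1.68 TPM and 1.67 to 3.37 TPM, and Epx was below the level tested. The 4 basophil markers summed to 2.14 to 6.14 TPM in Cre_PD1 and 4.65 to 18.3 TPM in MKO_PD1, with overlap. The part of these cells in the Ccr3 level was not tested. The eotaxin genes did not share the pattern of Ccr3. Ccl24 ran over 26.6 to 39.2 TPM in Cre_PD1 and 30.9 to 56.9 TPM in MKO_PD1 and Ccl11 over 2.32 to 7.39 TPM in Cre_PD1 and 1.55 to 9.80 TPM in MKO_PD1, with overlap between the groups in both.

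Cxcl17, a mucosal chemokine of epithelia, was the member with the largest difference in the other direction. Cxcl17 (ENSMUSG00000060188.6, chromosome 7, 25400053 to 25412886) was at 24.9, 10.2 and 10.6 TPM in the Cre_PD1 libraries and 0.701, 5.13 and 3.35 TPM in the MKO_PD1 libraries, from 193, 93 and 71 reads per Cre_PD1 library and 7, 39 and 27 per MKO_PD1 library. All MKO_PD1 libraries lay below all Cre_PD1 libraries, at 15.3 ± 8.39 TPM in Cre_PD1 against 3.06 ± 2.23 TPM in MKO_PD1. The log2 difference was -2.07 (SE 0.55, limma adjusted p = 0.168). It was -2.46 without MKO_PD1 replicate 2 (limma adjusted p = 0.0290), in a fit that called 38.0% of all tested genes lower. The 5 tumour epithelial markers, which bile duct cells also express, summed to 7371 to 13581 TPM in Cre_PD1 and 1394 to 4503 TPM in MKO_PD1, a sum that rests on 3 keratins. Krt8, Krt18 and Krt19 were lower in all MKO_PD1 libraries (28.9% of all tested genes). Like Cxcl17, they were highest in Cre_PD1 replicate 1 (28.3% of all tested genes) and lowest in MKO_PD1 replicate 1 (70.2%). Epcam and Cldn4 overlapped between the groups and had their highest levels, 20.3 and 20.0 TPM, in MKO_PD1 replicate 2. Their part in the Cxcl17 level was not tested. Ccl27a, a skin-type chemokine that binds Ccr10, was at 12.5, 12.2 and 14.7 TPM in the Cre_PD1 libraries and 8.85, 10.2 and 7.76 TPM in the MKO_PD1 libraries. The groups did not overlap, but the difference was -0.51 (SE 0.27, adjusted p = 0.217), near the all-gene median, and -0.068 with overlap after median-of-ratios scaling. Cxcl14, an epithelial and stromal chemokine without a settled receptor, was at 50.9, 87.5 and 46.5 TPM in the Cre_PD1 libraries and 30.8, 113 and 53.9 TPM in the MKO_PD1 libraries and had both its lowest and its highest value in MKO_PD1 (difference -0.045, SE 0.48, adjusted p = 0.948). Ccl25, known from gut and thymus, ran over 4.45 to 6.18 TPM in Cre_PD1 and 1.99 to 6.26 TPM in MKO_PD1, and Ccr10 over 1.35 to 1.98 TPM in Cre_PD1 and 0.442 to 2.26 TPM in MKO_PD1.

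Ligands and receptors were then set against each other within each library, as the summed TPM of the tested ligands over that of the tested receptors. This covered 9 groups where both were tested. A further group, which holds the receptor whose values are not reported here, was left out of the counts and of the adjustment. Such a ratio does not depend on the scaling. The groups did not overlap for 4 of the 9 ratios, each with an exact permutation p = 0.1 (two-sided, the smallest that 3 against 3 libraries can give) and p = 0.225 adjusted over the 9. The count and the adjustment include the Ccr3 ratio, whose direction the filter on low values fixed. This raises the count and lowers the adjusted p of the other ratios, so neither is read as a result. Higher in MKO_PD1 was Cxcl12 over Cxcr4, given above. Lower in MKO_PD1 were 3 ratios. Cxcl9, Cxcl10 and Cxcl11 over Cxcr3 stood at 77.7, 80.3 and 77.1 in Cre_PD1 and 29.7, 46.8 and 57.3 in MKO_PD1, so that MKO_PD1 replicate 2, with the highest ligand level, had a lower ratio than any Cre_PD1 library. Ccl2, Ccl7, Ccl12 and Ccl8 over Ccr2 stood at 22.0, 35.2 and 31.05 and at 11.0, 18.6 and 11.2. Ccl8 was the highest of these 4 ligands in every library. Ccl24 and Ccl11 over Ccr3 stood at 101.9, 87.1 and 75.4 and at 26.3, 13.8 and 36.6, but since the filter fixed the direction of Ccr3, this ratio is a description and its p is not read. The 5 ratios that overlapped were those for Cxcr2, Ccr7, Cx3cr1, Cxcr6 and Ccr10, with exact permutation p from 0.6 to 1.0.

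**Figure D5:**
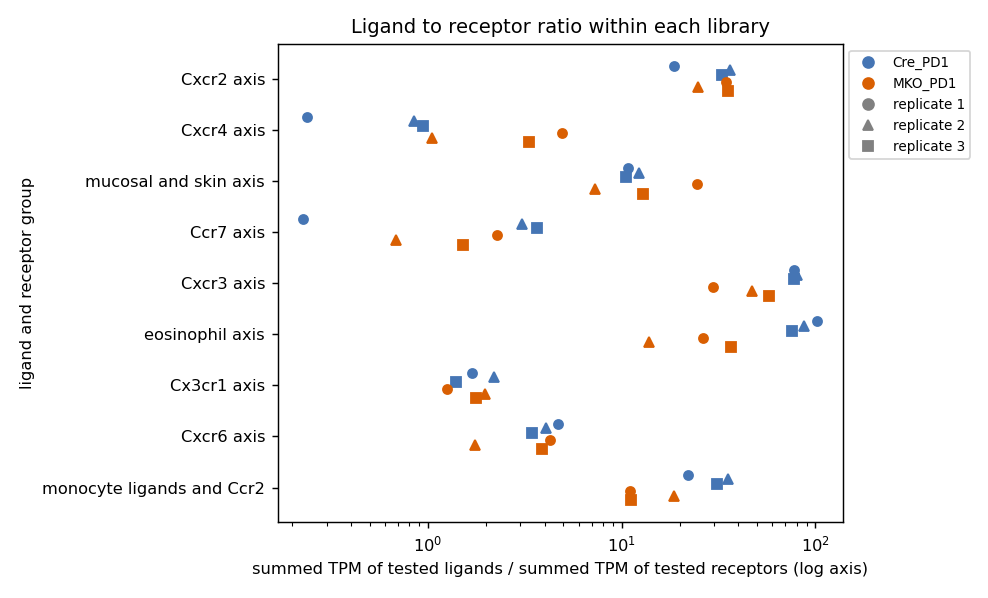
Ratio of summed ligand TPM to summed receptor TPM within each library for the 9 reported groups with both tested (log axis, Cre_PD1 blue above MKO_PD1 orange in each row, marker shape by replicate number). Cxcl12 over Cxcr4 lies further right in MKO_PD1, and the Cxcr3, Ccr3 (eosinophil axis) and Ccr2 rows lie further left.

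Genes that bind, clear or relay chemokines were described from a list of 26, which held atypical receptors, platelet chemokines and signalling proteins. Of these, 25 were tested and 0 passed the limma adjusted threshold. At an unadjusted p under 0.05 there were 6 higher (8.47% of all tested genes) and 3 lower (19.5%) in MKO_PD1. The 4 of smallest p were all higher in MKO_PD1 without overlap. Dpp4, a protease that trims Cxcl12 and Cxcl10 among others and is also made by hepatocytes, was at 6.09, 13.1 and 14.8 TPM in Cre_PD1 and 39.4, 19.4 and 34.7 TPM in MKO_PD1. Rarres2, the liver-made chemoattractant chemerin, was at 35.4, 94.97 and 79.1 TPM and at 221, 123 and 153 TPM. Ppbp, a platelet ligand of Cxcr2, was at 4.72, 14.2 and 12.6 TPM and at 18.8, 43.5 and 27.4 TPM. Ackr1, an atypical receptor of venules and red cells that holds many chemokines, was at 0.420, 2.07 and 2.19 TPM and at 10.4, 4.34 and 3.84 TPM. Each had a limma adjusted p = 0.168. Dpp4 and Rarres2 were highest in MKO_PD1 replicate 1, the library with the largest hepatocyte share, and the part of hepatocytes was not tested.

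The 17 members below the tested level complete the family. Ccl26, Ccl27b, Ccl19-ps3 and Ccl21d were at 0 in every library. For the first 3, whose length is known, 3 reads in a library would amount to at most 1.21, 0.805 and 1.06 TPM, a floor that covers counting error only. Cxcl15, Ccl21b, Ccl28, Cxcr1, Ccr4, Ccr9 and Ccr1l1 stayed below 1 TPM in all libraries, with a highest value of 0.653 TPM for Ccr9. Ccl20, Ccr6, Cxcr5 and Ccl19-ps1 reached 1 TPM in 1 library and Ccl1 and Xcr1 in 2. Cxcr1, the other receptor for neutrophil ligands, peaked at 0.336 TPM, and Ccl20, the ligand of Ccr6, at 2.01 TPM in Cre_PD1 replicate 3. The 13 of these genes with a value above 0 were compared in the fit without a filter, in which 0 of 56 members passed. With the hepatocyte list removed before scaling, 44 members were tested and 0 passed.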

How the data were processed

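PolyA RNA of 6 liver tumours was sequenced, 3 libraries each of Cre_PD1 and MKO_PD1. Reads were aligned with STAR 2.7.10a to mm10 and counted with featureCounts 2.0.3 of Subread, per the submitters' processing notes. The deposited table is named TPM, but its columns sum to 70362.561 to 105280.961. Multiplied by GENCODE M21 exon lengths, the deposited values are whole multiples of 1 constant, 8.028 (within 0.001 read for 98.4% of 29860 genes, and for 58 of 60 members), so the authors deposited a length-normalised signal whose total differs between libraries. The step that made this signal is not given in the sources used here. Each column was rescaled to 1000000, called TPM here, in place of the TPM the design had assumed. Recovered reads per library numbered 26750310 to 34268374, and a value near 1 TPM rests on few reads.

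The 16506 genes that reached 1 TPM in 3 or more libraries were fitted as log2(TPM + 1) with limma 3.58.1 (R 4.3.3, mean-variance trend, Benjamini-Hochberg adjustment over all tested genes, threshold 0.05). The fit was also run on simulated counts with the same dispersion for every gene. Those counts lack the spread between MKO_PD1 libraries seen here, so that run does not check the fit for these data. The design text counts 3 mice per genotype, and the libraries were read as 1 per mouse, which the labels do not state outright. The p-values measure the spread between these samples. Values in every library are given for the 12 tested members of smallest p, the 10 of highest mean level and receptors chosen by name, whichever were tested. For 1 receptor, which stays in the counts over the family, values are not reported here. Other members are given by range, apart from Cxcl3, Cxcl5 and the pairs of genes in ratios, which were picked after their values were seen. From the list of chemokine handling genes, the 4 of smallest p are named, and Ackr3 after its values were seen. Members and gene lists were chosen with earlier results of these data known. Alternatives covered the pseudocount, filter, scaling, model options, a replicate block and left-out libraries. The fit of limma voom on recovered reads and the fit without MKO_PD1 replicates 1 and 3 were chosen after seeing the data. Promoters came from RefSeq (GRCm38.p6) by symbol and were found for 43 of 60 members.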

Additional observations from a re-analysis of the deposited data

How the results depend on the processing

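Leaving out 1 library at a time, 0 to 9 members passed the adjusted threshold (9 without MKO_PD1 replicate 2, 0 without each of the other 5). The groups did not overlap for 3 to 9 members higher in MKO_PD1, with 9 of 41 without MKO_PD1 replicate 1 (2117 of 16282 genes). They did not for 2 to 17 lower, with 17 of 42 without MKO_PD1 replicate 2 (62.1% of all genes) and 4 of 43 without Cre_PD1 replicate 1 (32.4%). The median difference of members minus that of all genes, 0.46, ranged from 0.079 to 0.60, lowest without MKO_PD1 replicate 2. Without MKO_PD1 replicates 1 and 3 it was 1.18 with 35 of 41 members higher without overlap (31.2% of all genes), and the lone sample is assumed to vary like the other group. Scaling moved the counts without overlap to 10 higher and 1 lower (median of ratios, 18.6% and 21.2% of all genes) and to 9 and 1 (quantile, 15.4% and 26.7%). Sample quality weights brought 20 members and 10551 genes past the threshold, with a weight of 11.0 on MKO_PD1 replicate 3 and 0.190 and 0.203 on replicates 1 and 2. The cause was not tested for any of these shifts. With a replicate block, 0 members passed and the median stayed at 0.46. Same-numbered libraries had correlations of -0.42, -0.26 and 0.049 of their deviations from the group means, so the numbers were not taken as pairs.

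Over 26 members and 512 alternative values, 439 kept sign and side of the threshold, 22 passed it and 51 changed sign. The sign held in every alternative run for 11 members (Ccl21a, Ccl27a, Ccl6, Ccl9, Ccr2, Ccr3, Cxcl1, Cxcl12, Cxcl17, Cxcl2 and Cxcr2). For Ccr3 the filter on low values fixed the sign, so nothing is read from its place in this list. By median of ratios the changed log2 differences were 0.29 for Ccr7, 0.42 for Cxcl14, 0.26 for Cxcl16, 0.16 for Cxcl9 and 0.30 for Cxcr4. By quantile normalization they were 0.20 for Ccr7, 0.38 for Cxcl14, 0.18 for Cxcl16 and 0.29 for Cxcr4. On the values as deposited they were 0.021 for Ccr7, 0.064 for Cxcl14 and 0.0064 for Cxcr4, and with hepatocyte genes removed 0.051 for Cxcl14. Quality weights gave -0.013 for Ccl4, -0.0066 for Ccl5, -0.34 for Cxcl10, -0.16 for Cxcr3 and -0.41 for Cxcr6. Voom gave 0.064 for Ccl8, 0.39 for Ccr7, 0.46 for Cxcl14, 0.29 for Cxcl16, 0.16 for Cxcl9 and 0.38 for Cxcr4. Without MKO_PD1 replicates 1 and 3 they were 1.47 for Ccl8, 0.79 for Ccr7, 0.33 for Cx3cl1, 0.14 for Cx3cr1, 0.92 for Cxcl14, 0.66 for Cxcl16, 0.95 for Cxcl9 and 1.01 for Cxcr4. Leaving out 1 library at a time, the differences that changed sign ranged from -0.33 to 0.89 for Ccl3, -0.19 to 0.81 for Ccl4, -0.26 to 1.18 for Ccl5, -1.54 to 0.25 for Ccl8, -0.65 to 0.82 for Ccr1, -0.56 to 0.22 for Ccr7, -0.65 to 0.58 for Cxcl10, -0.53 to 0.39 for Cxcl14, -0.64 to 0.093 for Cxcl16, -0.95 to 0.077 for Cxcl9, -0.74 to 0.37 for Cxcr4 and -0.61 to 0.71 for Cxcr6.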
